A study of Mus musculus with 10 samples.

Results

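The genes described here are the ligands and receptors of axon guidance, chosen by gene symbol from the genes that both gene lists of the series contained, matched by Ensembl identifier. The rule took class 3 to 7 semaphorins, plexins, neuropilins 1 and 2, Eph receptors, ephrins, Slits, Robos, netrins, netrin-G proteins, Unc5 receptors and Dcc. It selected 75 of 30406 genes. Of these, 70 were guidance genes proper: 20 semaphorins, 9 plexins, 2 neuropilins, 14 Eph receptors, 8 ephrins, 3 Slits, 4 Robos, 3 netrins, 2 netrin-G genes and 5 genes of the Dcc and Unc5 group. The other 5 met the rule by spelling only, namely the antisense transcripts Plxna4os1, Plxna4os2 and Plxna4os3, Unc50, which encodes a Golgi membrane protein, and Unc5cl. Levels are given in CPM, the count of unique molecular identifiers (UMIs, 1 per captured RNA molecule) of a gene after scaling the UMIs of all genes in a library and cell class to the same fixed total.

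The cells came from medial prefrontal cortex. The mice were males of the inbred strain C57BL/6N, aged over 2 months, whose place in a social hierarchy had been measured with the tube test. Rank1 mice were the dominants and Rank4 mice the subordinates, with 5 droplet (10x Genomics) libraries from either rank, and no genetic change or drug was named for either group. Each library pooled tissue from 2 or 3 mice after papain digestion at 37 °C for 60 min, so the library was the replicate and single mice could not be told apart. The libraries held 4442750 to 29278466 UMIs over 1838 to 15826 barcodes, and 1445 to 12592 cells per library were kept, with a median of 1327.5 to 2674.5 UMIs per cell. Any 2 libraries shared between 0 and 104 barcode sequences, at most 1.70% of the smaller library. Libraries within replicates 1 to 3 shared 0.33% to 1.70%, and those within replicates 4 and 5 shared 0.20% to 0.51%. Across these sets the share was at most 0.09%, and the cause was not tested. Replicates 1 to 3 of both ranks carried one gene-list version and replicates 4 and 5 another, as described under the levels of Dcc.

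Guidance cues are secreted or membrane-bound proteins that attract or repel a growing axon through receptors on its tip. Semaphorins act through plexins, the class 3 secreted ones mostly together with neuropilins. Ephrins bind Eph receptor tyrosine kinases and can signal in both directions. Slits repel axons through Robo receptors, and netrins attract through Dcc or repel through Unc5 receptors. Many of these genes stay on in the adult brain, where they act at synapses, in vessels and in glia.

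Cells were grouped without using any of these genes, and the groups were named from marker genes. The sums covered 16670 excitatory neurons, 9008 astrocytes, 4321 endothelial cells, 3594 microglia, 3181 oligodendrocyte precursors, 2300 oligodendrocytes, 2076 inhibitory neurons, 1634 pericytes, 530 smooth muscle cells and 328 committed oligodendrocyte precursors, the stage between precursor and myelinating cell. Markers of each named class were highest in that class. In committed precursors the summed level of the 7 oligodendrocyte markers also reached 18260 CPM, against 46290 CPM in oligodendrocytes. One microglial cluster was led by the chemokine genes Ccl3 and Ccl4, and 1 excitatory cluster by the activity-induced genes Egr4 and Npas4.

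In the GENCODE M21 annotation (GRCm38) 34 of the 75 genes overlap a gene on the other strand. Some neuronal RNA was counted in every other class. The 6 markers of excitatory neurons had, in the other 9 tested classes, a median of 9.55% to 21.1% of their excitatory level, lowest in inhibitory neurons and highest in microglia. A neuronal gene at such a share in glia or vessels was therefore not read as expressed there.

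Robo4, Sema3g and Plxnb3 had the largest log2 differences from other classes in endothelium and in the oligodendrocyte lineage, so their promoters are shown here. Robo4 encodes a vascular Robo receptor, Sema3g a secreted semaphorin and Plxnb3 a B-type plexin. The sequences are RefSeq promoters of build GRCm38.p6, from 250 bases before to 50 bases after the annotated start. In lower case, with capitals at the matches to AGGAAG on either strand, a core bound by ETS factors, which include regulators of endothelial genes, the Robo4 promoter (chr9:37401722-37402021, plus strand) and the Sema3g promoter (chr14:31217623-31217922, plus strand) read:
Robo4: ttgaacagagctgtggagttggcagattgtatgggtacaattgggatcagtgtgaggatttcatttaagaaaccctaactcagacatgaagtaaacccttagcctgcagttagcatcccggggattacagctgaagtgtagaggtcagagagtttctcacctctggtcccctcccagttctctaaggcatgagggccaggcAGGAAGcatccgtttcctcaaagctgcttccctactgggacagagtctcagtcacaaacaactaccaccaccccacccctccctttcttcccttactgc
Sema3g: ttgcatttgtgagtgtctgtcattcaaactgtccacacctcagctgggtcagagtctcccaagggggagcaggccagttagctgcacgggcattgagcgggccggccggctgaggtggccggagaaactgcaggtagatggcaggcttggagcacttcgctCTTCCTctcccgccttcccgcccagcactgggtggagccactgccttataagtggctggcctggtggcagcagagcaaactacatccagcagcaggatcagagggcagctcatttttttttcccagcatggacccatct
Each held 1 match, Sema3g on the opposite strand. Of all 32851 promoters of this length, 35.4% held this motif, and the promoters of Sema3c and Epha2, other endothelial genes below, held 0. The Plxnb3 promoter (chrX:73756853-73757152, plus strand) has its 1 match to ACAAAG on either strand in capitals, a core bound by SOX factors, which include regulators of the oligodendrocyte lineage:
Plxnb3: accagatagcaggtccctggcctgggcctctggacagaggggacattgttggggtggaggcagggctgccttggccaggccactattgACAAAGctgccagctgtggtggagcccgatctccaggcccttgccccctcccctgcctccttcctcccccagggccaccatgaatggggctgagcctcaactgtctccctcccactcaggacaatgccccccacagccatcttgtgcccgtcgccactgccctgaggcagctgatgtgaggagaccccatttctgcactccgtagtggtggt
The ACAAAG motif was in 18.7% of all promoters. The Sema3d promoter, another gene of the oligodendrocyte lineage, held 2 matches and the 3 listed for Sema4d held 0. A match describes letters and not a bound site. RefSeq entries were found for 62 of the 75 genes.

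Of the 75 genes, 59 passed the filter on low counts for the comparison of cell classes, and 16 did not, among them Ntng2, Sema3a, Sema3f, Epha3, Epha6 and Robo3. Each class was compared with the mean of the other 9 classes by edgeR's quasi-likelihood test with the library as a block, and a gene was called at a Benjamini-Hochberg adjusted p under 0.05 and a log2 difference of at least 1. In all, 144 pairs of a gene and a class were called higher. Of the 59 genes, 58 were called higher in at least 1 class, 51 of them in more than 1. The exception was Unc50. Of all 10654 genes tested, 8.26% to 17.2% were called higher in a given class. The share of all genes called in at least 1 class was not counted, so the 58 cannot be set against it. In the class and subclass profiles, called with no direction means called higher. In inhibitory neurons 28 genes were higher, where 14.3% of all genes tested were, and 11 were lower (16.3% of all). In excitatory neurons 27 were higher (17.2%) and 9 lower (16.5%). The median log2 difference of the 59 genes was 0.86 in inhibitory and 0.85 in excitatory neurons, beside -0.06 and -0.01 over all genes. In the other 8 classes it lay between -1.03 in smooth muscle cells and 0.17 in oligodendrocyte precursors, beside medians from -0.28 to 0.0032 over all genes.

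**Figure D1:**
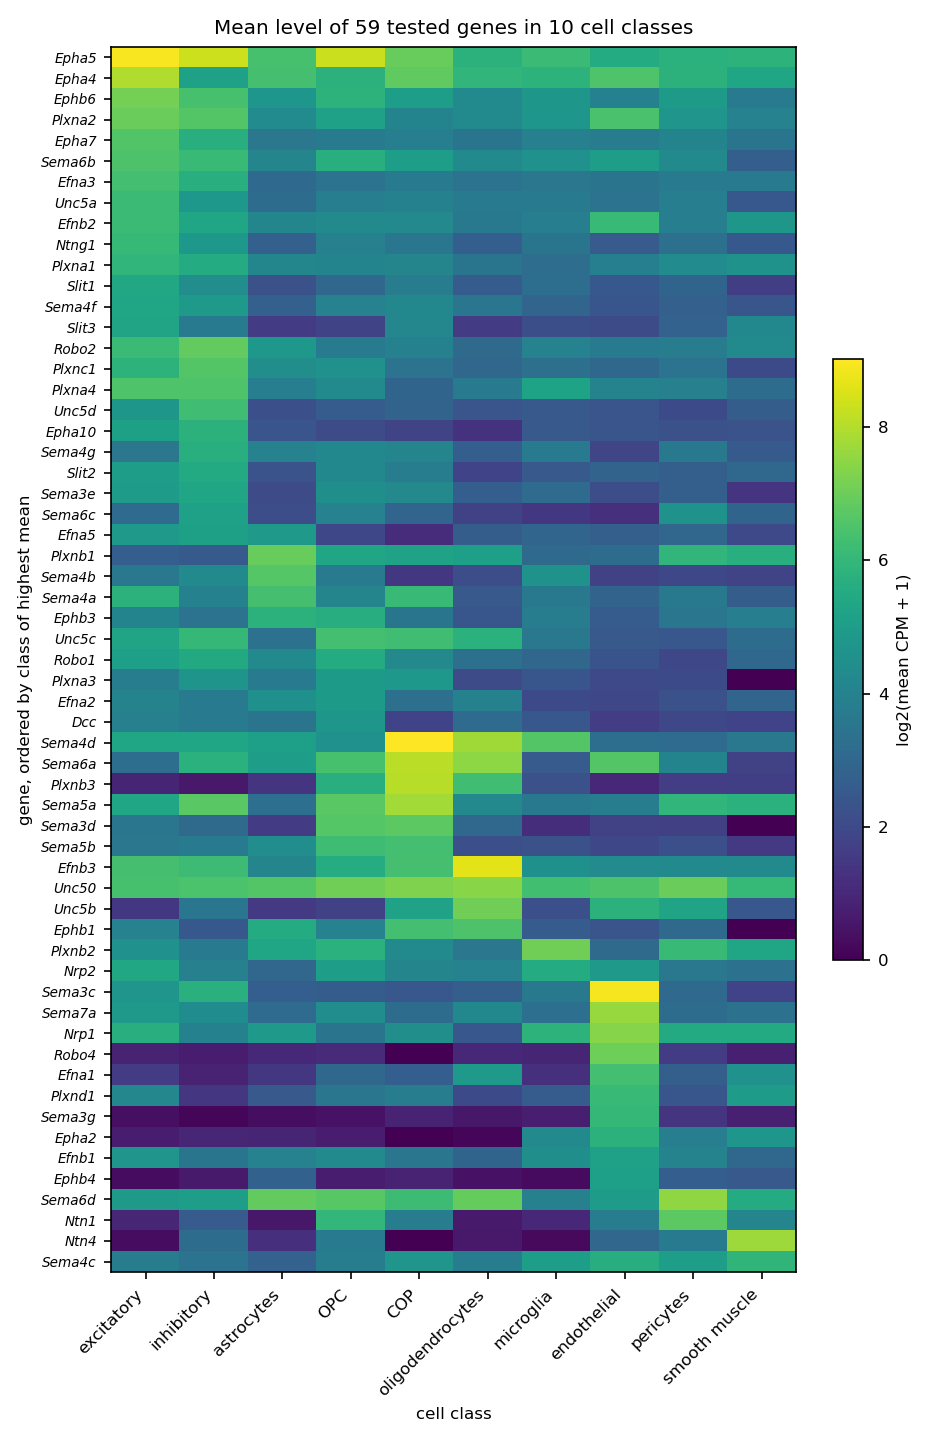
Mean level of the 59 tested genes in 10 cell classes, as log2(mean CPM + 1), with genes ordered by the class of their highest mean (OPC, oligodendrocyte precursors; COP, committed oligodendrocyte precursors). Neuronal genes fill the upper rows, and Robo4, Sema3g and Sema3c have their highest level in endothelial cells.

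In endothelial cells 17 genes were called higher, where 15.7% of all genes were, and 17 lower, where 8.86% were. Robo4 stood at 106.3, 115.6, 134.4, 139.2 and 156.8 CPM in Rank1 replicates 1 to 5 and at 103.0, 137.2, 128.5, 156.1 and 106.8 CPM in Rank4. Its libraries lay close together and both ranks overlapped. The next class, pericytes, had 2.07 ± 3.94 CPM (SD, n = 10), and the log2 difference from the other classes was 7.22 (SE 0.16, edgeR adjusted p = 1.036e-59). Sema3g reached 63.0 ± 24.9 CPM against 1.54 ± 3.37 CPM in pericytes (SD, n = 10), a log2 difference of 6.62 (SE 0.18). Sema3c, a secreted semaphorin that signals through neuropilins, stood at 476.2 ± 133.6 CPM, with 339.0 CPM in the lowest library, against 52.3 ± 25.9 CPM in inhibitory neurons, the next class. Sema7a, a membrane-anchored semaphorin, reached 196.7 ± 23.5 CPM and the receptor Nrp1 165.0 ± 39.5 CPM in endothelium, both above the next class in 10 of 10 libraries. Ephb4, a receptor known for its part in veins, had 33.1 ± 12.3 CPM.

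Epha2, an Eph receptor found in epithelia and vessels, varied between endothelial libraries more than the others. Replicates 2 and 3 had 130.6 and 95.0 CPM in Rank1 and 126.3 and 91.4 CPM in Rank4, while the remaining 6 libraries lay between 10.7 and 25.6 CPM. The libraries thus divided by replicate number and not by rank. Its log2 difference from the other classes was 4.80 (SE 0.23). Its ligand gene Efna1 also had its highest mean in endothelium, at 78.5 ± 45.9 CPM.

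**Figure D2:**
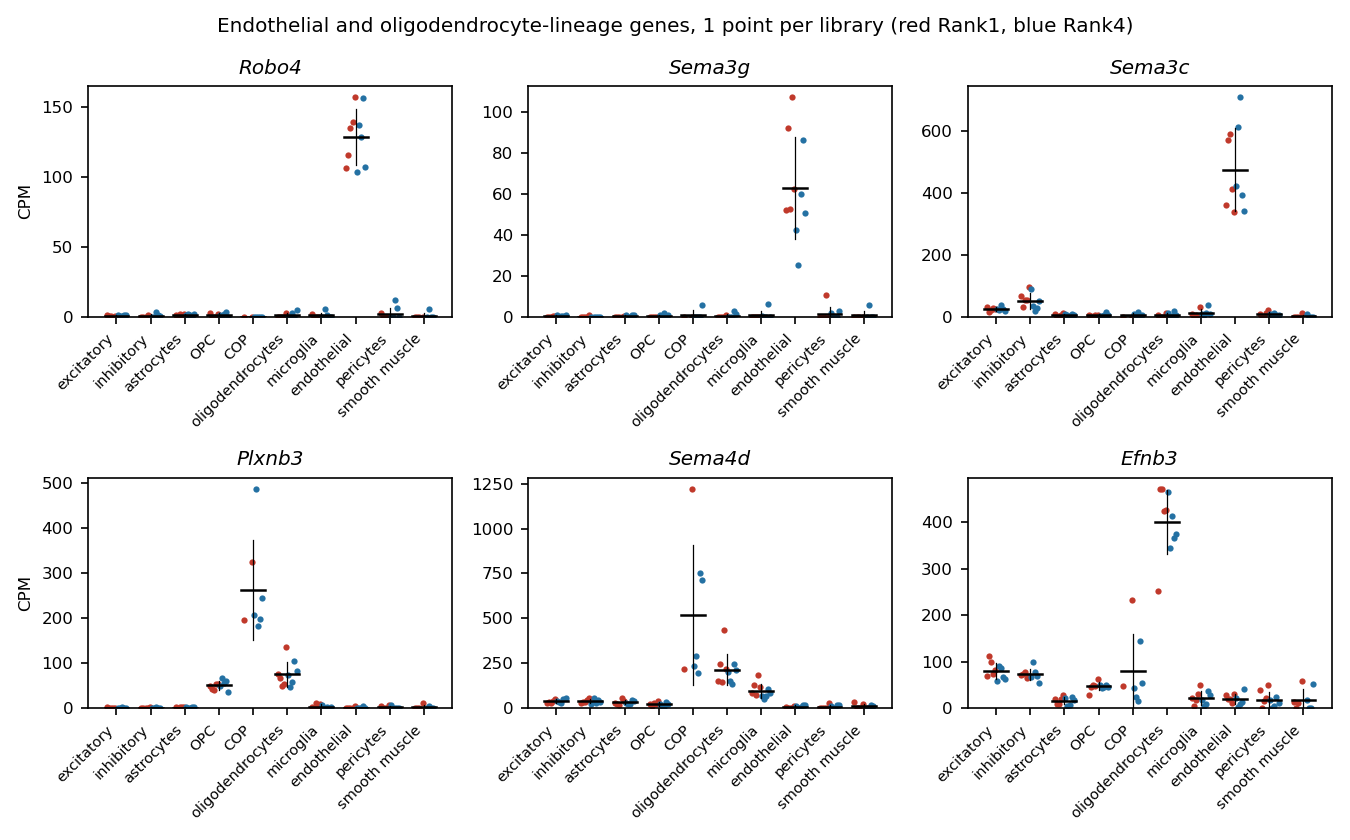
CPM of 6 genes in each cell class, 1 point per library (red Rank1, blue Rank4), with the mean as a bar and ± 1 SD as a thin line. Robo4, Sema3g and Sema3c are high in endothelial cells, Plxnb3 and Sema4d in committed precursors, and Efnb3 in oligodendrocytes.

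The mural cells of vessels had netrin genes. Ntn4, which encodes a netrin of basement membranes, stood at 206.6 ± 110.5 CPM in smooth muscle cells (SD, n = 8) and at 12.5 ± 16.5 CPM in pericytes, higher in smooth muscle in 8 of 8 libraries. The smooth muscle libraries were 105.5 to 255.7 CPM in Rank1 and 134.9 to 409.4 CPM in Rank4, so the ranks overlapped. The log2 difference from the other classes was 6.98 (SE 0.24). Ntn1, the classical netrin, had its highest level in pericytes, at 107.0 ± 28.0 CPM, followed by oligodendrocyte precursors at 62.0 ± 13.4 CPM (SD, n = 10), with pericytes above precursors in 9 of 10 libraries. In pericytes 9 genes were called higher (9.63% of all genes) and 8 lower (6.05%). In smooth muscle cells 8 were higher (11.9%) and 18 lower (15.5%), among them Ephb1, Plxna3 and Sema3d with 0 UMIs there. The smaller higher calls in these cells, Efna1, Plxnd1 and Epha2 in smooth muscle and Ntn4 and Epha2 in pericytes, rested on 23 to 31 UMIs each. Ntn4 in pericytes was not called with the Rank1 libraries alone, where its log2 difference was 0.23 (SE 0.35). It was also not called with a stricter cell filter (0.81, SE 0.78) or with replicates 1 to 3 alone (1.18, SE 0.66). With replicates 4 and 5 alone, Epha2 in pericytes and Epha2 and Plxnd1 in smooth muscle were not called. Efna1 in smooth muscle was not called with the Rank4 libraries alone (0.99, SE 0.73). Efna1 in smooth muscle had 0 UMIs in the libraries of replicates 4 and 5, and with those libraries alone its log2 difference was -5.24 (SE 4.59, edgeR adjusted p = 0.523).

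In the oligodendrocyte lineage, 16 genes were called higher in oligodendrocyte precursors (10.1% of all genes), 11 in committed precursors (8.26%) and 9 in oligodendrocytes (8.68%). In the same order, 8 (6.82%), 4 (6.86%) and 12 (9.02%) were called lower. Plxnb3 was called higher at all these stages: 50.7 ± 9.27 CPM in precursors, 262.5 ± 110.3 CPM in committed precursors (SD, n = 7) and 74.9 ± 27.8 CPM in oligodendrocytes, higher in committed precursors than in oligodendrocytes in 7 of 7 libraries. Sema3d, a secreted semaphorin, stood at 100.2 ± 37.6 CPM in precursors and 107.3 ± 43.3 CPM in committed precursors, which did not differ beyond their spread. Sema4d, whose product binds B-type plexins, had 219.6 and 1223 CPM in the 2 Rank1 libraries with enough committed precursors and 198.2 to 753.6 CPM in the 5 Rank4 libraries. The libraries of replicates 4 and 5 were the high ones. Efnb3, a transmembrane ephrin present in myelin, reached 400.9 ± 68.8 CPM in oligodendrocytes, against 80.5 ± 17.4 CPM in excitatory neurons, with a log2 difference from the other classes of 3.70 (SE 0.14). Unc5b, a netrin receptor, stood at 131.6 ± 54.0 CPM and the receptor Ephb1 at 90.3 ± 13.4 CPM in the same cells.

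In astrocytes 11 genes were called higher, where 12.6% of all genes were, and 14 lower, where 7.96% were. Sema4b was their leading gene, at 98.5 ± 24.8 CPM against 23.7 ± 13.6 CPM in microglia, the next class (SD, n = 10; log2 difference from the other classes 4.19, SE 0.14). Plxnb1, a receptor for Sema4d, had its highest mean there too, at 119.8 ± 32.4 CPM, above pericytes in 10 of 10 libraries. In microglia 8 genes were called higher (13% of all genes) and 13 lower (7.8%). The higher ones were led by Epha2 with 19.1 ± 13.5 CPM and by Plxnb2, a plexin for class 4 semaphorins, with 132.8 ± 78.6 CPM. The antisense transcript Plxna4os1, too low for the test, was listed at 6.12 to 37.4 CPM in the 10 microglial libraries and at 3.30 ± 2.08 CPM in the next class. It overlaps Plxna4 on the other strand, and whether the authors' counting used strand is not given in the sources used here.

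Excitatory and inhibitory neurons were also compared directly within each library. Of 52 genes tested, 11 were higher in excitatory neurons (5.94% of all genes) and 7 were lower (5.96%), and the median log2 difference was 0.25 beside -0.02 over all genes. Epha4, an Eph receptor that binds both ephrin classes, stood at 247.3 ± 62.8 CPM in excitatory neurons, 2.76 higher than in inhibitory neurons on the log2 scale (SE 0.11, edgeR adjusted p = 6.776e-17). Plxnd1, the receptor of Sema3e, was higher by 2.98 (SE 0.29), Nrp1 by 1.98 (SE 0.17), Sema4a by 1.70 (SE 0.12) and Ephb1 by 1.50 (SE 0.21). Lower in excitatory neurons were the transmembrane semaphorins Sema6a (log2 difference -2.56, SE 0.12), Sema4g (-2.13, SE 0.12), Sema6c (-1.99, SE 0.17) and Sema5a (-1.23, SE 0.25), and the netrin receptor Unc5d (-1.66, SE 0.13). With replicates 1 to 3 alone, 7 genes instead of 11 were called higher. With replicates 4 and 5 alone, the Sema5a difference was -0.69 (SE 0.15), under the fold needed for a call.

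Netrin receptors had different leading classes. Unc5a was highest in excitatory neurons, at 70.2 ± 13.7 CPM, and Unc5d in inhibitory neurons, at 74.9 ± 30.8 CPM, each above the other neuron class in 10 of 10 libraries. Unc5b led in oligodendrocytes, and Unc5c in oligodendrocyte precursors at 79.4 ± 31.7 CPM, next to 76.2 ± 63.5 CPM in committed precursors, a difference within the spread. Ntng1 and Ntng2, a pair of membrane-anchored netrin relatives, stood far apart: in excitatory neurons Ntng1 had 51.4 to 89.7 CPM and Ntng2 0 to 1.69 CPM, with 67 UMIs of Ntng2 over all named cells. Ntng2 overlaps 6530402F18Rik on the same strand in the GENCODE M21 annotation, and reads shared by overlapping genes can go uncounted, which was not tested.

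**Figure D3:**
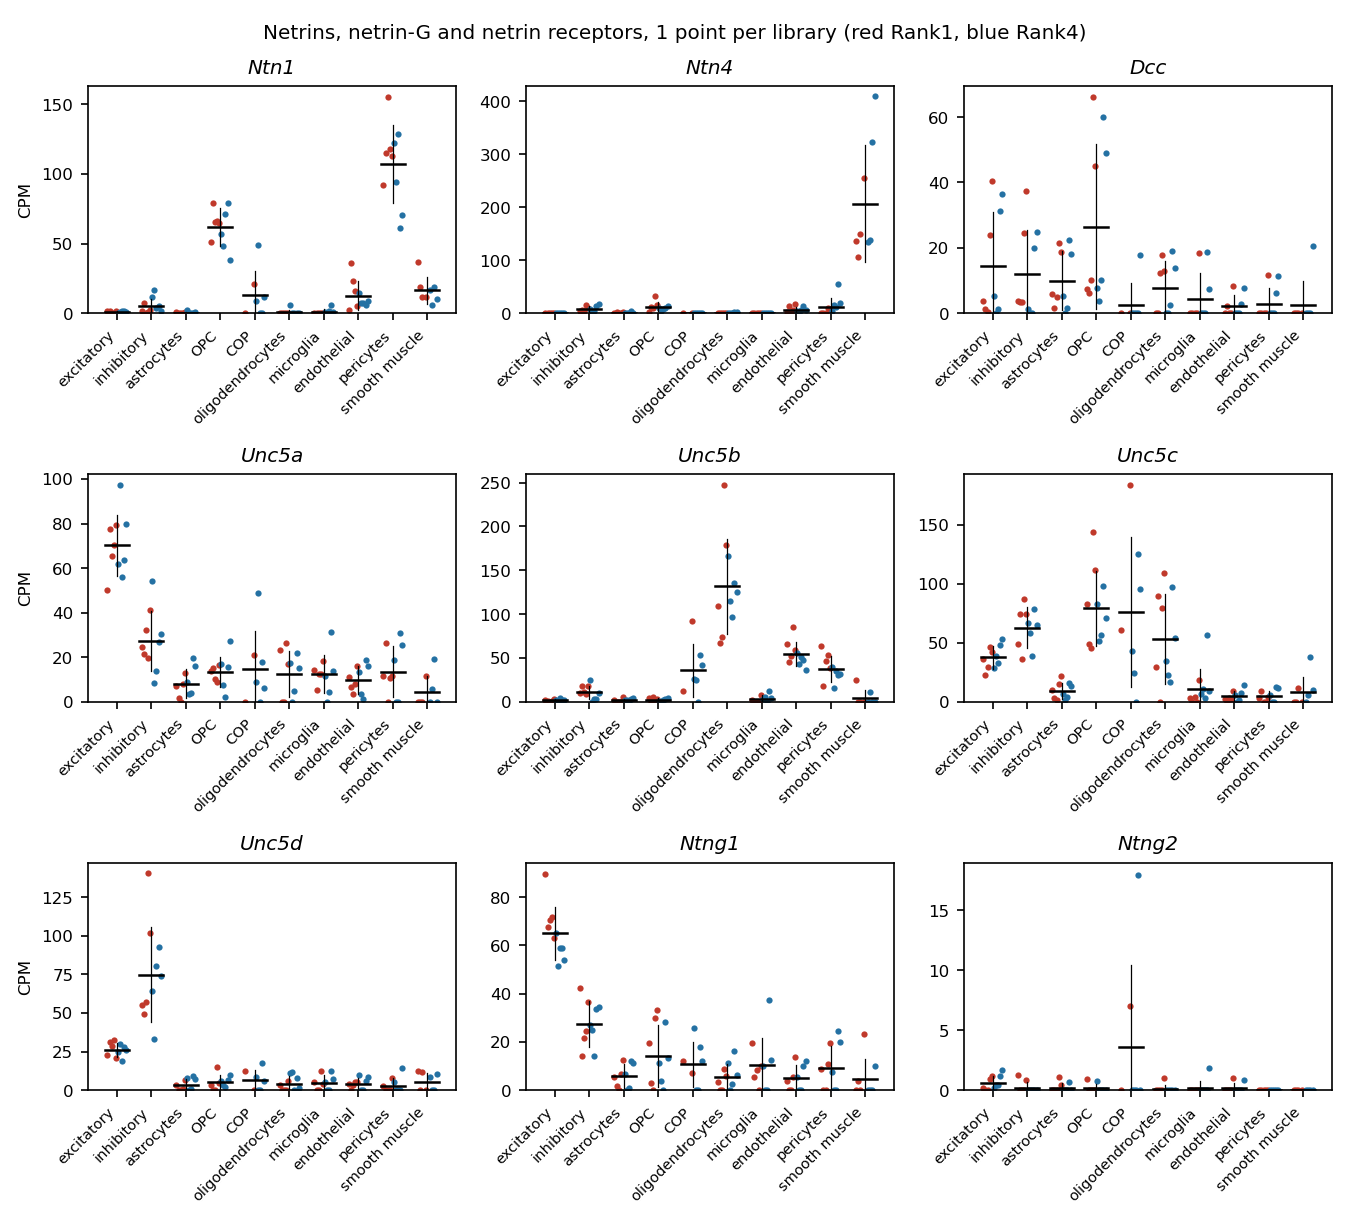
CPM of 2 netrins, 2 netrin-G genes and 5 netrin receptors in each cell class, 1 point per library (red Rank1, blue Rank4), with the mean as a bar and ± 1 SD as a thin line. Ntn1 is high in pericytes and precursors, Ntn4 in smooth muscle, and each Unc5 gene has another leading class.

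Dcc, the attractive netrin receptor, had its highest mean in oligodendrocyte precursors, at 26.5 ± 25.3 CPM, and its libraries fell into separate ranges. Rank1 replicates 1 to 3 had 7.39, 6.10 and 10.1 CPM and replicates 4 and 5 had 66.1 and 44.98 CPM, while Rank4 had 7.63, 3.69, 10.2, 60.0 and 49.1 CPM in the same order. Replicates 4 and 5 were high in both ranks, and these are the libraries with the longer gene list. In excitatory neurons Dcc had a mean of 1.99 CPM in replicates 1 to 3 and 33.1 CPM in replicates 4 and 5. Levels of 55 of the 75 genes averaged at least 5 CPM in these neurons. Of those, 12, or 21.8%, were higher in all libraries of replicates 4 and 5 than in any of replicates 1 to 3, where 22.7% of all such genes were, and 4, or 7.27%, were lower (17.7% of all). The higher genes included Epha6, Slit1, Slit3, Sema6d and Plxna2, and the lower ones were Efna3, Epha3, Plxna3 and Unc50. In astrocytes 13 of 43 genes, or 30.2%, were higher (20.6% of all) and 1 was lower (10.8%). The 13 included Epha5, Plxna2 and Ntng1, whose means in astrocytes were 17.2%, 15.8% and 8.8% of their excitatory level. Nrp2 had 3.86 and 11.4 CPM in astrocytes in the earlier and later replicates against 31.3 and 54.7 CPM in excitatory neurons. Plxna4 had 8.65 and 20.6 CPM against 66.3 and 129.5 CPM. None of these was read as expressed in astrocytes. The 13 also included Sema6d, with 69.6 and 182.8 CPM in astrocytes against 16.1 and 45 CPM in excitatory neurons. Ephb1 was another, with 36.2 and 60.2 CPM against 10.4 and 21.7 CPM. In endothelial cells 2 of 41 were higher (10.6%) and 2 lower (7.01%). The software version, the gene list and any other difference between these replicates cannot be told apart.

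Within excitatory neurons the genes differed by layer and projection type. IT neurons project within the telencephalon, PT neurons to the brainstem and spinal cord, CT neurons to the thalamus, and NP neurons only nearby. Excitatory clusters without a clear name were left out, the largest with 1607 cells. Of 54 genes tested, 29 were called higher in at least 1 subclass against the mean of the other 5, in 49 pairs. The share of all genes called in at least 1 subclass was not counted, and shares are given by subclass. L2/3 IT had 7 (3.14% of all genes were called higher), L5 IT 9 (2.46%), L5 PT 10 (3%), L5/6 NP 8 (3.66%), L6 CT 8 (2.3%) and L6 IT 7 (2.19%). Called lower were 7 in L2/3 IT (2.74%), 5 in L5 IT (1.31%), 8 in L5 PT (3.39%), 16 in L5/6 NP (5.15%), 10 in L6 CT (3.24%) and 2 in L6 IT (1.81%). The median log2 difference of the 54 genes lay between -0.27 in L5/6 NP and 0.21 in L5 PT.

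Upper-layer and layer 5 IT neurons shared some genes. In L2/3 IT, the receptors Epha6 and Epha3 were higher by 1.68 (SE 0.14) and 1.67 (SE 0.17) on the log2 scale. Epha6 there had 3.73 to 12.3 CPM in replicates 1 to 3 and 52.3 to 70.4 CPM in replicates 4 and 5, the same division as for Dcc. It was called in L5 PT too, at 24.1 ± 19.1 CPM, within the spread of its L2/3 IT mean of 29.1 ± 26.7 CPM. Plxnd1 stood at 25.4 ± 14.1 CPM in L2/3 IT and 36.8 ± 13.1 CPM in L5 IT (SD, n = 10), called in both. L5 IT was led by Sema3d, at 27.6 ± 8.23 CPM against 9.33 ± 5.06 CPM in L2/3 IT, higher in 10 of 10 libraries (log2 difference from the other subclasses 3.35, SE 0.20). Ntng1 reached 124.3 ± 39.7 CPM and Unc5c 67.8 ± 17.5 CPM in L5 IT. L6 IT was led by the secreted semaphorins Sema3e, at 74.4 ± 17.6 CPM, and Sema3c, at 62.8 ± 18.5 CPM, both above the next subclass in 8 of 8 libraries with both.

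In L5 PT neurons, Ephb1 stood at 45.2 ± 15.2 CPM (SD, n = 9), higher by 2.29 (SE 0.15), and was above L6 CT, where it was also called at 27.9 ± 12.9 CPM, in 8 of 8 libraries. Robo1, a Slit receptor, had 105.8 ± 26.5 CPM against 42.5 ± 6.28 CPM in L2/3 IT, and Epha10, an Eph receptor that lacks kinase activity, 98.7 ± 23.0 CPM against 39.6 ± 19.2 CPM, both higher in 9 of 9 libraries. Ntng1 was at 157.1 ± 69.6 CPM, within the spread of its L5 IT level.

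L5/6 NP and L6 CT neurons shared class 5 semaphorins. Sema5a stood at 129.7 ± 72.1 CPM in L5/6 NP and 154.2 ± 56.8 CPM in L6 CT (SD, n = 8), and Sema5b at 40.8 ± 13.2 and 37.8 ± 12.2 CPM, differences within the spread. Their log2 differences from the mean of the other subclasses were 3.12 (SE 0.16) and 3.46 (SE 0.10) for Sema5a and 2.70 (SE 0.27) and 2.51 (SE 0.16) for Sema5b. Nrp1 was called in both as well, at 129.0 ± 53.0 CPM in L6 CT and 117.6 ± 47.4 CPM in L5/6 NP. Sema6a was called in L5/6 NP alone, at 48.2 ± 10.4 CPM against 13.3 ± 8.01 CPM in L5 PT, higher in 8 of 8 libraries. Slit1, a secreted repellent, had 127.8 ± 50.2 CPM in L5/6 NP, above L6 CT in 7 of 7 libraries. The genes called lower in L5/6 NP included Ntng1, Epha4 and Slit2.

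**Figure D4:**
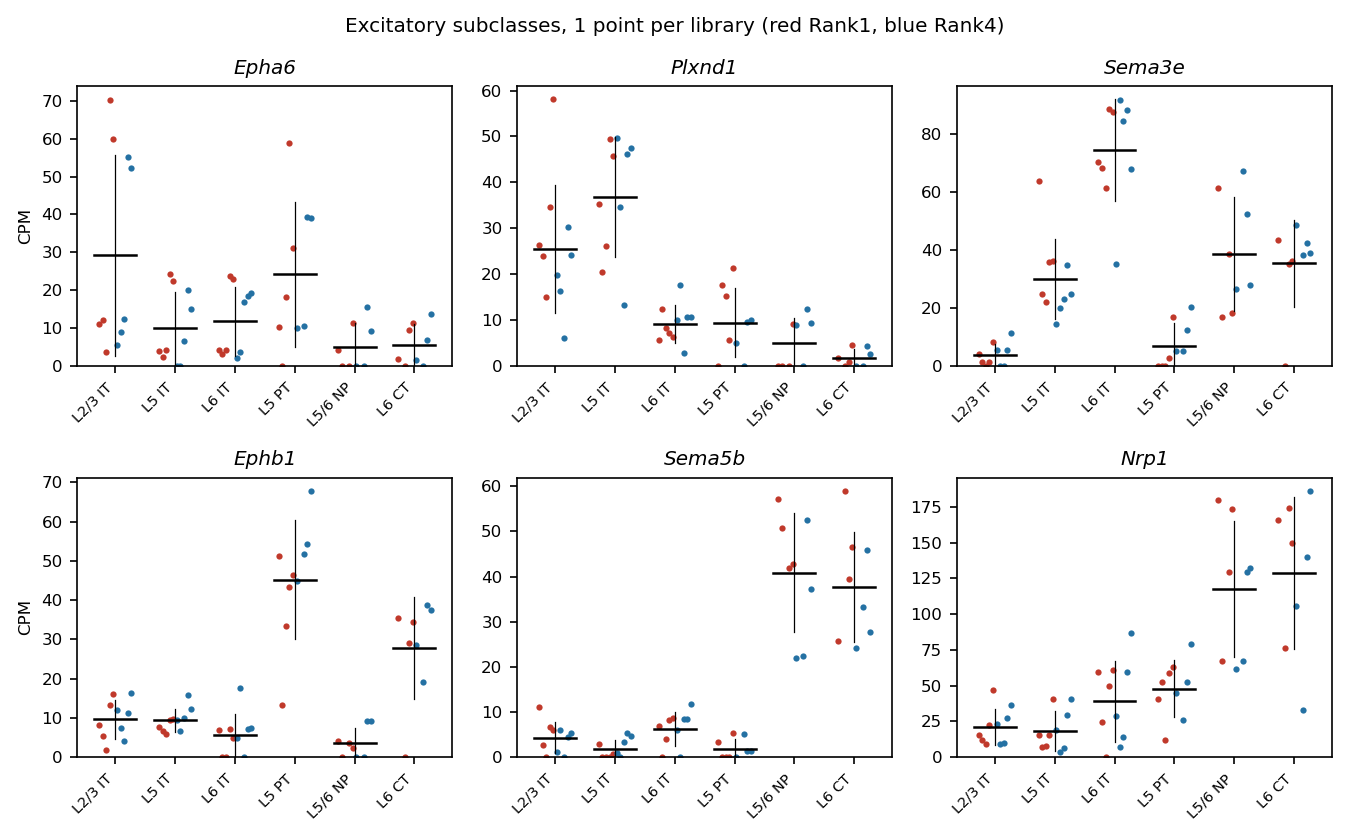
CPM of 6 genes in the excitatory subclasses, 1 point per library (red Rank1, blue Rank4), with the mean as a bar and ± 1 SD as a thin line. Epha6 is high in L2/3 IT and L5 PT, Plxnd1 in L5 IT and L2/3 IT, Sema3e in L6 IT, Ephb1 in L5 PT and less so in L6 CT, and Sema5b and Nrp1 in L5/6 NP and L6 CT.

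Inhibitory subclasses were smaller. Clusters without a clear name were left out here too. Among them were 1 of 180 cells nearest to Sst and 1 of 140 cells nearest to Pvalb, the latter with Slit2 among its leading genes. The 4 tested had 253 to 471 cells over 4 to 6 libraries, a Sncg subclass of 111 cells with 1 such library was not tested, and 20 genes passed the filter. Named by their marker genes, they gave 11 pairs called higher: 4 in Lamp5 (3.9% of all genes), 2 in Pvalb (4.09%), 1 in Sst (3.77%) and 4 in Vip (4.28%). Called lower were 3 in Lamp5 (5.01%), 3 in Pvalb (3.49%), 4 in Sst (3.17%) and 2 in Vip (3.02%). The 11 became 17 without Rank4 replicate 1, 29 with no filter on low counts and 19 at a clustering resolution of 2. These settings can also change which genes are tested, and their shares over all genes are not given here. Slit2 in Pvalb cells stood at 119.8, 145.2, 177.9, 278.4, 174.3 and 168.7 CPM in the 6 libraries with enough cells. All of them lay above every library of the Sst cells, which had 4.05 to 14.98 CPM (log2 difference from the other subclasses 4.68, SE 0.29, edgeR adjusted p = 1.551e-24). Sema5b in Vip cells had 37.4 to 132.5 CPM, while Sst libraries had 0 to 8.35 CPM, again without overlap. Lamp5 cells led in Sema5a, at 354.9 ± 143.3 CPM, and in Unc5c, at 212.8 ± 44.9 CPM against 59.8 ± 16.8 CPM in Sst cells. Ephb6, an Eph receptor without kinase activity, was called in Sst cells at 165.3 ± 63.5 CPM (SD, n = 4). Plxna4, a receptor for class 3 semaphorins, was called in Pvalb cells at 194.3 ± 103.3 CPM. With the Rank1 libraries alone, the Plxna4 log2 difference was 0.89 (SE 0.28), under the fold needed for a call.

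Ligands and receptors were also set side by side. Among 29 known pairs, 3 had their highest mean in the same class: Sema3a with Plxna4 in inhibitory neurons, Efna1 with Epha2 in endothelium and Efna3 with Epha4 in excitatory neurons. Some of these peaks lay within the spread of another class: Plxna4 had 92.7 ± 47.8 CPM in inhibitory and 91.6 ± 34.1 CPM in excitatory neurons. Efnb2 had 69.7 ± 14.8 CPM in excitatory neurons and 66.8 ± 31.1 CPM in endothelium, the class where its receptor gene Ephb4 was highest. Sema3e was highest in inhibitory neurons, at 38.9 ± 15.1 CPM, and its receptor Plxnd1 in endothelium, at 68.3 ± 29.1 CPM. Sema4d was highest in committed precursors and Plxnb1 in astrocytes. Sema7a was highest in endothelium and Plxnc1 in inhibitory neurons, at 97.2 ± 37.9 CPM. Slit2, whose product binds Robo1, was highest in inhibitory neurons at 44.3 ± 26.1 CPM, and Robo1 in oligodendrocyte precursors at 45.9 ± 11.5 CPM, within the spread of its inhibitory level of 43.4 ± 13.6 CPM. A pair here means a known binding partner and not a measured contact.

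The study asked about social rank. Rank1 and Rank4 libraries were compared within each class by edgeR's quasi-likelihood test with the gene-list version as a covariate, and differences are Rank1 relative to Rank4. None of 215 tests of a guidance gene in a class passed the adjusted threshold (0% of all genes tested did), and 8 had an unadjusted p under 0.05, a share of 3.72% beside 2.3% of all genes. In the neuronal subclasses 0 of 267 passed (0% of all genes) and 17, or 6.37%, had an unadjusted p under 0.05, beside 4.23%. The share was above that of all genes in 4 subclasses: 14.3% in L2/3 IT (6 of 42 tests) beside 3.8%, 10.9% in L5 IT (5 of 46) beside 4.79%, 4.65% in L6 CT beside 4.06% and 4% in L5/6 NP beside 3.39%. It was below in the other 5: 3.23% in L5 PT beside 3.5%, 2.5% in L6 IT beside 3.62%, 4.55% in Pvalb beside 7.14%, 0 of 9 in Vip beside 6.71% and 0 of 9 in Lamp5 beside 1.77%. DESeq2 also called 0 in both, with unadjusted p under 0.05 for 8 of 215 tests in classes and 14 of 267 in subclasses. Its shares over all genes are not given here, so these counts have none to be set against. In data simulated from the excitatory neurons, edgeR recovered 75% of 100 genes changed by 1 on the log2 scale and 99% of 100 changed by 2. It made 12 false calls among 12422 genes. The changed genes were drawn from the better counted ones, and the simulated means held no difference between gene-list versions. No subclass was simulated, so these shares do not give the power of the rank tests above.

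The sample titles give replicate numbers but do not state that these pair libraries across ranks. Pairs here are libraries of the same replicate number. With the replicate number as a block, 1 test in classes passed (0.275% of all genes) and 4 in subclasses (0.53%). With p-values of that fit adjusted over all classes or all subclasses together, an alternative added after seeing the data, 0 and 4 passed. An unadjusted p under 0.05 was found for 31 of 215 tests in classes, or 14.4% beside 10% of all genes, and for 36 of 244 in subclasses, or 14.8% beside 9.16%. Without replicate 1 of both ranks, an alternative also added later, none of these 5 calls passed in the blocked fit. Ephb3 (chr16:21204755-21223305, GRCm38), an Eph receptor for B-class ephrins, was 1 of these in excitatory neurons, where 0.518% of genes passed. Its levels were 7.23, 5.51, 7.58, 17.9 and 21.0 CPM in Rank1 replicates 1 to 5 and 20.6, 6.48, 6.54, 31.3 and 34.3 CPM in Rank4. Rank4 was higher in 4 of 5 pairs and the ranks overlapped. The log2 difference was -0.79 (SE 0.27, edgeR adjusted p = 0.9998), and -0.78 (SE 0.16, edgeR adjusted p = 0.0387) with the block. Taken apart by gene list, replicates 1 to 3 gave -0.80 (SE 0.49) and replicates 4 and 5 gave -0.73 (SE 0.16). Without Rank4 replicate 1, the high library of the first 3, the difference was -0.47 (SE 0.18). With the block, the call was lost without replicate 1 (-0.60, SE 0.16, edgeR adjusted p = 0.185), 3, 4 or 5.

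In L5 IT neurons, where 0.584% of genes passed with the block, 3 guidance genes did. Ephb3 had 4.76, 9.05, 4.02, 17.9 and 26.3 CPM in Rank1 and 21.9, 4.95, 6.61, 43.1 and 43.5 CPM in Rank4, lower in Rank1 in 4 of 5 pairs (log2 difference -1.03, SE 0.29, edgeR adjusted p = 0.918; with the block -1.01, SE 0.24, adjusted p = 0.0210). Epha5 (chr5:84054761-84417382), a receptor for A-class ephrins, had 847.8, 515.7, 540.0, 725.7 and 654.7 CPM in Rank1 and 498.6, 377.8, 340.6, 549.5 and 613.5 CPM in Rank4. It was higher in Rank1 in 5 of 5 pairs, though the ranks overlapped (0.51, SE 0.19, edgeR adjusted p = 0.964; with the block 0.49, SE 0.11, adjusted p = 0.0146). Replicates 1 to 3 alone gave 0.70 (SE 0.30), replicates 4 and 5 alone 0.28 (SE 0.17), and the libraries without Rank1 replicate 1 gave 0.31 (SE 0.14). Ntng1, named after its value was seen, had 214.1, 117.6, 102.4, 135.1 and 161.2 CPM in Rank1 and 113.5, 67.7, 99.2, 119.9 and 112.1 CPM in Rank4, higher in Rank1 in 5 of 5 pairs, with overlap between the ranks (0.55, SE 0.21, edgeR adjusted p = 0.984; with the block 0.54, SE 0.13, adjusted p = 0.0281). With the block and without replicate 1, the differences were -0.86 (SE 0.25) for Ephb3, 0.39 (SE 0.11) for Epha5 and 0.40 (SE 0.14) for Ntng1, with edgeR adjusted p = 0.142, 0.112 and 0.355. The Epha5 call was also lost without replicate 2 or 3, and that of Ntng1 without 2 or 5. In these L5 IT sums, the 5 T cell markers added up to 15.8 to 26.3 CPM in Rank1 and 31.7 to 47.7 CPM in Rank4. Trbc2 made up 12.1 to 23.3 CPM of this in Rank1 and 29.5 to 45.8 CPM in Rank4. Skap1 had at most 4.02 CPM in Rank1 and 2.95 CPM in Rank4. Cd3e was at 0 in Rank1 and at most 0.59 CPM in Rank4, and Cd3d and Cd3g were at 0 in every library. Trbc2 was also among the leading genes of an L6 CT cluster of 56 cells. The part of these markers in the results was not tested.

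Plxnc1 (chr10:94790866-94944835), the receptor of Sema7a, had the smallest unadjusted p of the fit with the version covariate, and the largest of the 5 tests called with the block. In L6 CT neurons, where 1.03% of genes passed with the block, it had 53.2, 76.7, 76.4 and 77.2 CPM in Rank1 replicates 1, 3, 4 and 5 and 32.9, 47.6, 55.4 and 44.3 CPM in the same Rank4 replicates. Rank1 was higher in 4 of 4 pairs, and only its replicate 1 fell within the Rank4 range. The log2 difference was 0.65 (SE 0.17, unadjusted p = 0.00126, edgeR adjusted p = 0.9998), and 0.67 (SE 0.17, edgeR adjusted p = 0.0269) with the block. This call was lost without replicate 1 (0.66, SE 0.18, edgeR adjusted p = 0.0644) or 5 (0.57, SE 0.23, edgeR adjusted p = 0.478). In astrocytes Plxnc1 differed by 0.57 (SE 0.20, edgeR adjusted p = 0.9999), with 0.85 (SE 0.31) from replicates 1 to 3 and 0.32 (SE 0.31) from replicates 4 and 5.

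Epha7 (chr4:28813131-28967499) in L2/3 IT neurons was the pair whose ranks did not overlap among the 8 with the smallest p. These 8 were picked for small p, and the share of all genes without overlap was not counted. Rank1 had 108.0, 98.7, 102.5, 93.9 and 120.1 CPM and Rank4 77.6, 84.3, 67.5, 71.1 and 78.1 CPM. The log2 difference was 0.47 (SE 0.15, edgeR adjusted p = 0.9993), and 0.47 (SE 0.14, edgeR adjusted p = 0.1001) with the block, so it passed neither. The 2 of the 8 not yet described were Ephb3 in L5 PT (-0.83, SE 0.28) and Unc50 in L5 IT (0.45, SE 0.16), which passed neither fit.

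**Figure D5:**
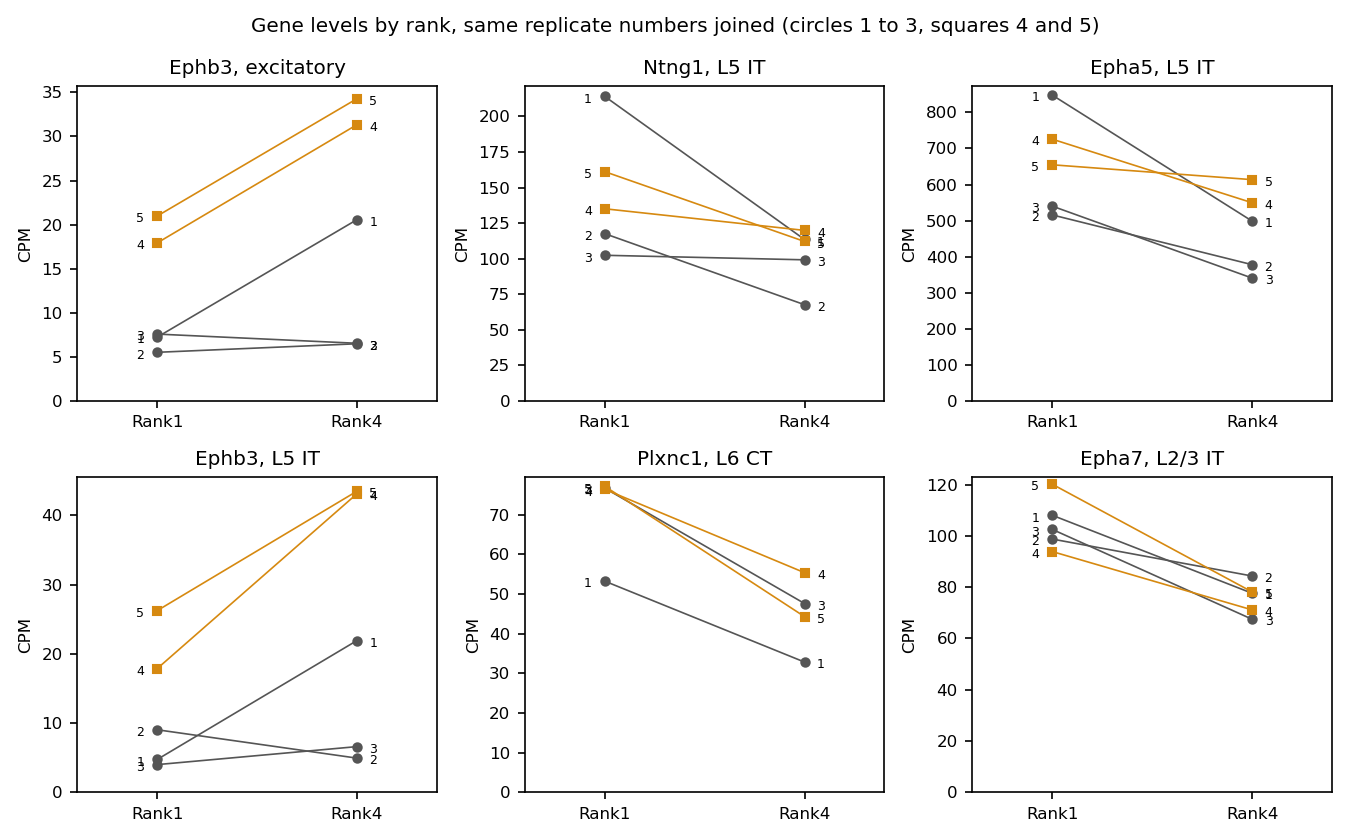
CPM in Rank1 and Rank4 libraries for the 5 gene and class pairs called with the replicate block and for Epha7 in L2/3 IT, with lines joining the same replicate number (circles 1 to 3, squares 4 and 5). Epha5, Ntng1, Plxnc1 and Epha7 fall from Rank1 to Rank4 in every pair, and Ephb3 rises in 4 of 5.

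Of the 88 other genes of these pathways that were listed, co-receptors and intracellular effectors such as Neo1, Dpysl2 and Rac1, none was called by rank in a class with either edgeR fit or with DESeq2, nor in a subclass with either edgeR fit. With the version covariate, 8 of their 477 tests over classes, or 1.68%, had an unadjusted p under 0.05, beside 2.3% of all genes. With the block these were 55 of 480, or 11.5%, beside 10%. Over subclasses the version covariate gave 16 of 548, or 2.92%, beside 4.23%. The block gave 31 of 459 there, or 6.75%, beside 9.16%. The smallest p was that of Rgmb, a ligand of neogenin, in excitatory neurons (log2 difference -0.33, SE 0.10, edgeR adjusted p = 0.9998).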

How the data were processed

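The authors deposited matrices of raw UMI counts. Replicates 1 to 3 were written by software version 3.1.0 and replicates 4 and 5 by version 4.0.0, per the file headers; the submitters' processing notes name Cell Ranger 4.0.0 and build mm10. The lists and genes were chosen with earlier results of these data known.

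Barcodes with at least 500 genes, at most 15% mitochondrial UMIs and no doublet call (Scrublet in scanpy 1.11.5) were kept: 45864 of 64937. In 1 library, Rank1 replicate 1, the Scrublet threshold failed and 0.238, the median of the others, was used. Rank4 replicate 1 had the highest share of doublet calls, at 10.8% of its barcodes. Leiden clustering (resolution 1, 30 components, 15 neighbours) left the guidance genes out, though not genes correlated with them, so profile p-values are small by construction. Clusters were named from fixed marker lists; a rule that leaves clusters under 50 cells with no leading marker unnamed was set after seeing the data.

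UMIs were summed per library and class (at least 20 cells) and tested with edgeR 4.0.16, DESeq2 1.42.0 being an alternative; scripts were tested on simulated data. Profiles used the library as a block. Rank tests used the version as covariate and needed 3 libraries per rank. The sample titles do not state that replicate numbers pair the libraries. All 40 same-number correlations of deviations from the rank means, over 8 classes, lay between 0.44 and 0.87. In only 15 of the 40 did both libraries correlate best with their own number. The shared split of replicates 1 to 3 from 4 and 5 was left in these deviations, so the correlations cannot decide on pairing. Blocked values are given where they change a call. Named genes were, in each class, up to 4 genes called higher with the largest fold, up to 5 per direction between neuron classes, and the 8 rank results of smallest p.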

Additional observations from a re-analysis of the deposited data

Results flagged for a closer look

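In 160 groups of 4 or 5 libraries of the genes named above, 5 had a library that stood apart from its group; chance gives about 1 in 20, or 8. Efnb3 in oligodendrocytes was at 251.9 CPM in Rank1 replicate 1, with the nearest library at 424.0 CPM. Plxnb3 in committed precursors was at 486.9 CPM in Rank4 replicate 2, from 20 UMIs, with the nearest at 244.1 CPM. Plxnc1 in L6 CT neurons was at 53.2 CPM in Rank1 replicate 1, with the nearest at 76.4 CPM. Plxnd1 in excitatory neurons was at 6.10 CPM in Rank4 replicate 3, from 14 UMIs, with the nearest at 18.4 CPM. Sema5b in oligodendrocyte precursors was at 132.7 CPM in Rank4 replicate 4, with the nearest at 61.8 CPM.

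Ntn3, another netrin gene, was only in the longer gene list and so in none of the comparisons. It had 139 and 273 UMIs in Rank1 replicates 4 and 5 and 211 and 291 UMIs in Rank4 replicates 4 and 5, above the limit of 3 counts that a count of 0 allows. These are 11.03, 12.87, 13.01 and 11.38 CPM over all barcodes.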

How the results depend on the processing

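The class profile ranged from 142 to 152 higher calls without 1 library, the excitatory profile from 47 to 53, and excitatory against inhibitory neurons from 10 to 12 higher and 6 to 7 lower. The inhibitory profile was the least steady: 9 to 17 higher calls without 1 library, with 17 without Rank4 replicate 1, 29 with no filter on low counts and 19 at clustering resolution 2, instead of 11. With replicates 1 to 3 only, 7 instead of 11 genes were higher in excitatory than in inhibitory neurons. By rank, the replicate block gave 1 instead of 0 calls in classes and 4 instead of 0 in subclasses; with adjustment over all classes or subclasses together, chosen after seeing the data, it gave 0 and 4. It changed no other call where it was fitted, and Lamp5 and Pvalb had no blocked fit. With the version covariate, leaving out 1 library gave 0 rank calls each time. With the replicate block, leaving out 1 replicate number of both ranks, an alternative added after seeing the data, gave 0 to 1 calls in classes and 0 to 4 in subclasses, with 0 in both without replicate 1.

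Over all alternatives to the named class and subclass results, 1544 values kept direction and call, 20 kept direction only, and Efna1 in smooth muscle with replicates 4 and 5 only reversed (log2 difference -5.24, SE 4.59); its libraries there had 0 UMIs, and the cause was not tested. In the inhibitory subclasses only 20 of the genes passed the filter, and the reason was not tested. Ephb3 in L5 IT and in L5 PT could not be fitted with replicates 1 to 3 only, nor in L5 IT with the stricter cell filter or with the block without replicate 4 or 5, as its counts fell under the filter.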
